A study of Mus musculus with 6 samples.

Results

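The primary cilium is a single microtubule-based antenna that grows from the older centriole of the centrosome and carries receptors such as those of the hedgehog pathway. Its proteins are carried along the microtubules by intraflagellar transport (IFT): trains of the IFT-B complex are driven outwards by the motor kinesin-2, trains of IFT-A are needed for the return by dynein-2, and the BBSome, a coat named after Bardet-Biedl syndrome, links membrane proteins to the trains. A ring of transition zone proteins gates the base, and a set of centrosomal proteins (named Cep) builds the centrioles and the appendages that dock them to the membrane. In muscle cultures, cilia are known from cycling and quiescent myoblasts and are lost as cells fuse into myotubes.

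The genes described here were chosen by a rule on symbols alone, with earlier results of these data known. It took every probe set with a single gene symbol of the form Ift, Bbs, Nphp, Tctn or Cep followed by a digit. The kinesin-2 genes Kif3a, Kif3b and Kifap3 and the genes Arl3, Arl6, Arl13b and Pkd2 were added by name. The members came to 57 probe sets of 38 genes, among 22626 probe sets and 12393 genes with a single symbol. The Nphp family, Arl6, Arl13b, Pkd2 and Tctn1 were not analysed here. Of the BBSome, Bbs2 and Bbs9 fit the symbol rule, while its subunit genes Ttc8 and Bbip1 do not and are given with the other ciliary genes. The symbols of all 38 genes matched those of RefSeq, but a Cep symbol is a name and not a measured location.

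The study compared myotubes of C2C12, an established mouse myoblast line, after 16 h with 500 µM palmitate or with 1% bovine serum albumin (BSA), in 2 groups of 3 arrays. Palmitate is a saturated fatty acid, bound here to fatty acid-free BSA. Both groups had been grown in 20% fetal bovine serum to confluence and differentiated for 5 days in 2% horse serum. RNA of whole cultures was read on Affymetrix mouse 430A 2.0 arrays as MAS 5.0 signals, a linear intensity per probe set, so unfused cells and myotubes were measured together. Numbered replicates are not said to be separate cultures, and p-values therefore cover the spread between these samples only, which may be technical.

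All 12 of the myotube markers examined passed the filter on dim probe sets (a mean log2 signal above the 40th percentile, or a signal of 267.1), among them Myog, Myh3 and Acta1, and their summed signal ran from 149896 to 247799 with BSA and from 168978 to 179234 with palmitate. None of the 12 passed limma's test at an adjusted p of 0.05. At an unadjusted p under 0.05, 2 were lower and 0 higher, against 19.8% and 13.7% of all genes. These were Actn2 and Mef2c, with log2 fold changes (palmitate over BSA) of -0.94 ± 0.34 SE (adjusted p = 0.0758) and -0.41 ± 0.16 (adjusted p = 0.0876). In both, every palmitate array lay below every BSA array. Of the 12, 9 lay below 0, against 54.1% of all genes. The Gapdh control probe sets at both transcript ends have a log2 difference (3' minus 5') that rises as RNA degrades. It was -0.20 on palmitate replicate 2, the lowest value (against 0.19 to 0.35 on the other arrays). Palmitate replicate 2 also held the lowest of the 3 palmitate signals for 17 of 31 member genes. Fewer cells of a type and less RNA per cell cannot be told apart in such samples.

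Several transcripts of the intraflagellar transport machinery, and those of 2 centriole proteins, were lower in palmitate-treated myotubes. Of the 41 member probe sets that passed the filter, 10 were lower with palmitate and 0 were higher in limma's test (adjusted p under 0.05 over all 13575 probe sets), and 18 were lower and 0 higher at an unadjusted p under 0.05, where 17.3% of all probe sets were lower and 15.2% higher. The 10 belonged to Ift140 of IFT-A, to Ift27, Ift46, Ift74, Ift80 and Ift81 of IFT-B, to Kifap3 of kinesin-2, which had 2 of them, and to the centriole genes Cep19 and Cep89. Over all probe sets 19.2% were called, 10.6% lower and 8.63% higher, against 24.4% of the members, all of them lower. The median log2 fold change of the 41 was -0.47, against -0.0083 over all probe sets tested, and 34 of the 41 (82.9%) lay below 0, against 50.7%. For 2 of the 10, Cep89 and a probe set of Kifap3, the palmitate mean lay under the filter, so they passed it through the BSA arrays. The same held for the mean log2 signals of Ift122, Ift172, Bbs9 and Cep41, which were not called. All of these are among the 34 below 0. Ift122 and Bbs9 are also among the 18, and their groups were separate. The count rested on single arrays, since it was 3 without BSA replicate 3 and 5 without BSA replicate 2. Over all probe sets 7.4% and 6.14% were called lower in those same fits. Without palmitate replicate 2, the array with the lowest Gapdh value, 7 members fell and 0 rose, against 9.44% of all probe sets lower.

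**Figure D1:**
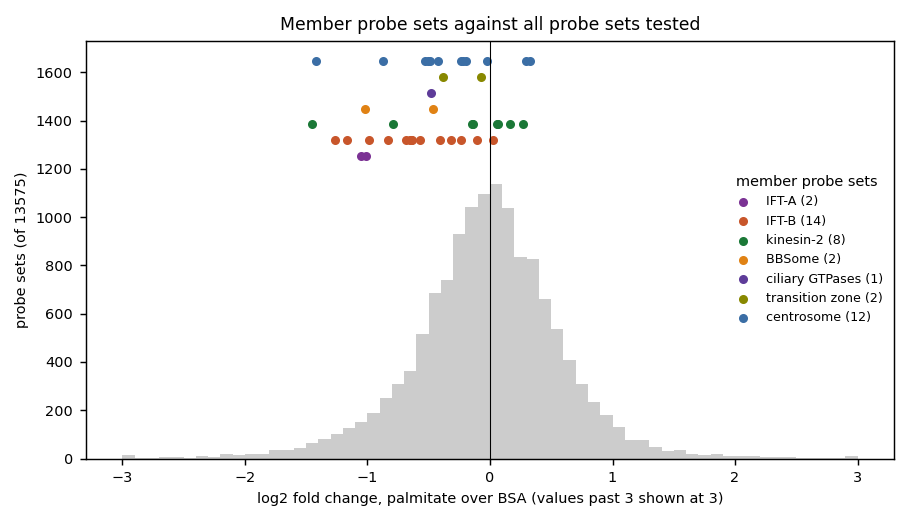
Histogram of the log2 fold change, palmitate over BSA, of the 13575 probe sets tested (vertical axis, number of probe sets), with the 41 member probe sets as points above it in a row for each complex; the height of a row has no meaning. Of the 41 points 34 lie left of 0, and the IFT-A and IFT-B rows hold 15 points below 0 and 1 above.

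**Figure D2:**
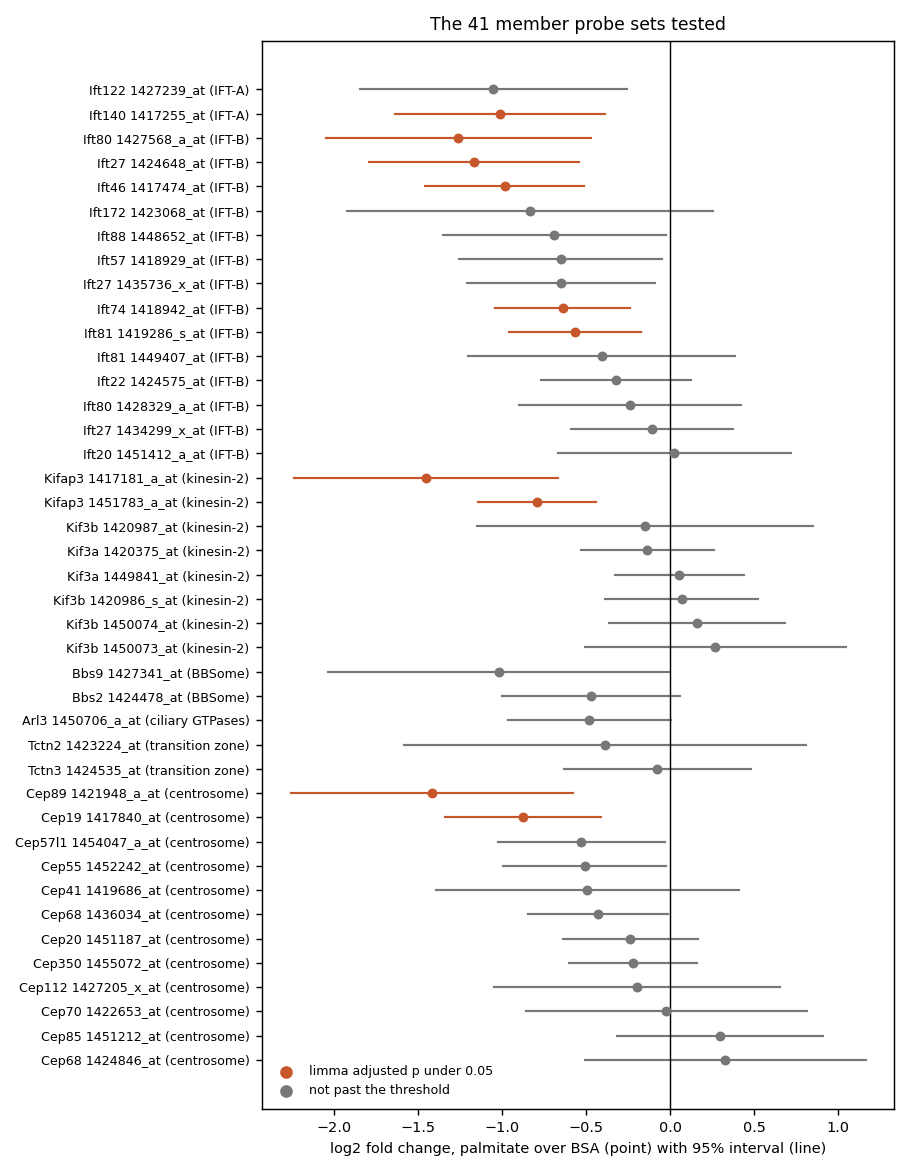
Log2 fold change, palmitate over BSA (points), with its 95% interval from limma (lines) for each of the 41 member probe sets tested, ordered by complex. The 10 probe sets past the adjusted threshold are in orange, all at or below -0.57.

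The IFT-A complex was represented by Ift140 and Ift122, both core subunits of the train needed for return transport. The signal of Ift140 was 1110.5, 889.9 and 689.9 on the BSA arrays and 335.2, 482.3 and 513.7 on the palmitate arrays. Every palmitate array lay below every BSA array, and the mean fell to 49.5% of that with BSA (log2 fold change -1.01 ± 0.29 SE, n = 3 per group, adjusted p = 0.0281). Ift122 had signals of 744.3, 472.8 and 416.9 with BSA and 282.3, 216.4 and 269.2 with palmitate. Its groups did not overlap either, but the difference of -1.05 ± 0.36 missed the threshold (adjusted p = 0.0638). The palmitate signals of Ift122 were close to the 267.1 of the filter, so the size of its difference is imprecise. The call of Ift140 ended without BSA replicate 1, BSA replicate 2 or palmitate replicate 1 (adjusted p up to 0.107).

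IFT-B, the complex of the outward trains, had 10 genes tested, of which 9 were below 0 and 4 fell by the gene's representative probe set, the one with the highest mean signal. By the same choice 20.2% of all genes were called, 12.3% lower and 7.92% higher. Ift46, a core subunit, was the most stable of them. Its signals were 1932.1, 1300.5 and 1766.4 with BSA and 961.0, 803.3 and 741.3 with palmitate. The palmitate mean was 50.1% of the BSA mean (-0.99 ± 0.22, adjusted p = 0.00835), and the difference passed on leaving out each array in turn (adjusted p up to 0.0355).

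Ift74 and Ift81 form a pair that binds tubulin, the main cargo of a growing cilium. The signal of Ift74 was 2958.5, 3784.3 and 3445.8 with BSA and 2438.9, 1746.1 and 2394.1 with palmitate (-0.64 ± 0.18, adjusted p = 0.0301). That of Ift81 was 1465.7, 1614.2 and 1652.2 with BSA and 1002.6, 1115.9 and 1073.8 with palmitate (-0.57 ± 0.18, adjusted p = 0.0459). Neither pair of groups overlapped, and the falls left 64.6% of the signal of Ift74 and 67.5% of that of Ift81. These values of Ift81 are from its representative probe set. The other probe set of Ift81 was at -0.41 ± 0.36 (adjusted p = 0.481) with overlapping groups. Averaged over both, Ift81 missed the threshold (-0.49, adjusted p = 0.146). The call of Ift81 ended on leaving out any single array (adjusted p 0.0558 to 0.134) and under most other scalings, and that of Ift74 without BSA replicate 2, BSA replicate 3 or palmitate replicate 2 (adjusted p up to 0.127), under median scaling (adjusted p = 0.0506) and with no intensity trend (adjusted p = 0.0701).

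Calls also differed between the probe sets of Ift80 and of Ift27. Ift80 is a peripheral IFT-B subunit, and Ift27 a small GTPase carried on the train that helps the BBSome leave the cilium. The representative probe set of Ift80 read 639.3, 967.7 and 773.9 with BSA and 533.1, 213.7 and 305.7 with palmitate. It fell (-1.26 ± 0.36, adjusted p = 0.0297), while the other probe set was at -0.24 ± 0.30 (adjusted p = 0.633), and the call ended with the 2 averaged (-0.75, adjusted p = 0.0869) and without BSA replicate 2 or 3 or palmitate replicate 2 or 3 (adjusted p up to 0.126). One probe set of Ift27 read 717.7, 620.5 and 796.4 with BSA and 308.6, 337.9 and 298.6 with palmitate. The groups were far apart, and the fall was 2.25-fold (-1.17 ± 0.29, adjusted p = 0.0143, and 0.0633 without BSA replicate 3). A second probe set read 753.6, 685.5 and 839.5 with BSA and 434.7, 452.6 and 573.3 with palmitate, separate groups whose difference of -0.65 ± 0.26 missed the threshold (adjusted p = 0.101). The representative one was at -0.11 ± 0.22 (adjusted p = 0.781) with overlapping groups. The latter 2 carry the suffix _x, which the maker gives to probe sets with probes that may bind other transcripts, and the average of all 3 missed the threshold (-0.64, adjusted p = 0.0528).

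**Figure D3:**
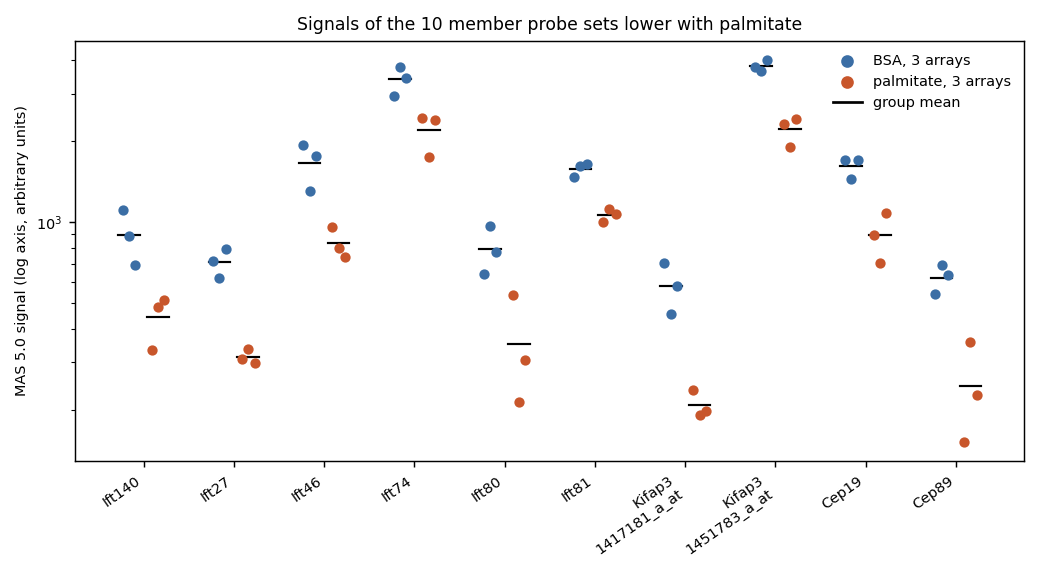
MAS 5.0 signal (log axis, arbitrary units) of the 10 member probe sets lower with palmitate, as points for each of 3 BSA and 3 palmitate arrays, with a line at each group mean. In all 10 the palmitate points lie below the BSA points; Kifap3 appears with both of its probe sets.

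The remaining IFT-B genes did not pass. Ift88, a core subunit needed to form cilia, was at -0.69 ± 0.30 (adjusted p = 0.14). Its palmitate signals of 364.5, 308.5 and 519.5 lay below the BSA signals of 558.8, 630.8 and 693.7. Ift57, a peripheral subunit, read 2058.3, 2838.4 and 1976.8 with BSA and 1757.0, 884.6 and 1916.1 with palmitate. Its groups were separate too (-0.65 ± 0.28, adjusted p = 0.126), with palmitate replicate 2 far below the others and a difference of -0.30 without it. Ift172, which takes part in the turnaround at the tip, was at -0.83 ± 0.50 (adjusted p = 0.275), with signals of 117.6, 426.6 and 361.7 on the palmitate arrays. Ift22, a GTPase-like subunit, was at -0.32 ± 0.21 (adjusted p = 0.307). Ift20, which is also found at the Golgi, was at 0.026 ± 0.32 (adjusted p = 0.968, 95% interval -0.67 to 0.72), the one IFT-B gene above 0, and it was below 0 without BSA replicate 2, palmitate replicate 1 or palmitate replicate 2 and after hybridisation control scaling (-0.31).

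Within kinesin-2, the motor of the outward trains, the subunits differed in their values. Kifap3 encodes the adaptor that joins the pair of motor chains to cargo, and both of its probe sets fell. The representative one read 3771.3, 3640.5 and 4019.7 with BSA and 2315.2, 1907.4 and 2412.9 with palmitate (-0.79 ± 0.16, adjusted p = 0.00524), which was the smallest p among the members. It passed on leaving out each array in turn (adjusted p up to 0.0266). The other read 706.6, 454.4 and 577.0 with BSA and 237.4, 190.7 and 198.5 with palmitate, under the filter's signal (-1.46 ± 0.36, adjusted p = 0.0149, and up to 0.0744 without BSA replicate 1 or 3).

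The motor chains themselves did not pass the test. Kif3a had signals of 1684.0, 1428.5 and 1833.0 with BSA and 1709.2, 1664.6 and 1737.2 with palmitate by its representative probe set (0.055 ± 0.18, 95% interval -0.33 to 0.44). Kif3b had signals of 1006.4, 847.9 and 943.1 with BSA and 1006.5, 850.8 and 1085.2 with palmitate by its representative probe set (0.069 ± 0.21, 95% interval -0.39 to 0.52). The groups overlapped in each of the 6 probe sets of these motor genes, which ran from -0.15 to 0.27 as deposited. Both intervals leave out the -0.79 of Kifap3, but a difference between the subunits was not tested. Hybridisation control scaling, which lowers every fold change by the same amount, put Kif3a at -0.28 and Kif3b at -0.26, and neither passed there (adjusted p = 0.406 and 0.49).

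Genes of the BBSome, Arl3 and the transition zone gave 0 calls among 5 genes in limma's test, where 12.3% of all genes were lower and 7.92% higher. At an unadjusted p under 0.05, 1 was lower and 0 higher, against 19.8% and 13.7% of all genes. Bbs2 and Bbs9, both structural subunits of the BBSome, were at -0.47 ± 0.24 (adjusted p = 0.208) and -1.02 ± 0.47 (adjusted p = 0.153). In both, every palmitate array lay below the BSA arrays, with signals of 590.2, 551.7 and 549.8 against 921.9, 674.7 and 762.4 for Bbs2. Bbs9 spread from 113.4 to 348.3 with palmitate against 392.8 to 447.3 with BSA. Arl3, the GTPase that releases lipid-modified proteins inside the cilium, was at -0.48 ± 0.22 (adjusted p = 0.16), with 1 palmitate array (2445.8) inside the BSA range of 2031.3 to 2844.2. The tectonic genes Tctn2 and Tctn3 of the transition zone were at -0.39 ± 0.55 and -0.077 ± 0.26, and their groups overlapped.

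Of the 18 Cep genes, 11 had a probe set past the filter, and 2 of these fell with 0 higher, which is 18.2% against the 12.3% of all genes called lower. At an unadjusted p under 0.05, 5 were lower and 0 higher, against 19.8% and 13.7% of all genes. Cep19, which sits on the mother centriole and helps to recruit IFT-B there, read 1709.5, 1451.9 and 1698.1 with BSA and 896.8, 702.7 and 1084.0 with palmitate. The groups were well apart and the mean went to 55.2% (-0.88 ± 0.21, adjusted p = 0.014), with an adjusted p of 0.0501 without BSA replicate 3 as the one array whose removal ended the call. Cep89, a protein of the distal appendages that dock the centriole to the membrane, read 539.1, 690.6 and 632.6 with BSA and 151.7, 358.6 and 227.6 with palmitate (-1.42 ± 0.39, adjusted p = 0.0235). Palmitate replicates 1 and 3 and the palmitate mean lay under the filter's signal of 267.1, so Cep89 passed the filter through its BSA signals and the size of its fall is imprecise. Its second probe set lay under the filter with overlapping groups, its average over both was -0.88 (adjusted p = 0.15), and its call ended without BSA replicate 2 or 3 or palmitate replicate 1 or 3 (adjusted p up to 0.0976).

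Cep genes with other roles were not called. Cep55, which acts at the midbody as daughter cells part, was at -0.51 ± 0.22 (adjusted p = 0.136), with 1466.4, 2402.3 and 2490.7 on the BSA arrays and 1472.5, 1295.6 and 1599.1 on the palmitate arrays. BSA replicate 1 lay within the palmitate range, and without it Cep55 was at -0.75 (adjusted p = 0.0184). Its second probe set, under the filter, was at 0.52 in the fit with no filter (adjusted p = 0.84), and the average of both was at 0.0061 (adjusted p = 0.996). Cep57l1, which holds paired centrioles together, read 834.0, 977.1 and 1024.9 with BSA and 663.9, 748.7 and 561.3 with palmitate (-0.53 ± 0.23, adjusted p = 0.133). Cep68, which links centrosomes, was at -0.43 ± 0.19 (adjusted p = 0.144), and the groups of both were separate. A second probe set of Cep68 was at 0.33 ± 0.38 with overlapping groups, and the average over the gene was 0.056 (adjusted p = 0.939). Cep350, which binds Cep19 and centriolar microtubules, was at -0.22 ± 0.18, and Cep20, a protein of centriolar satellites, at -0.24 ± 0.18. Cep41, which acts in tubulin modification within the cilium, was at -0.49 ± 0.41, Cep112 at -0.20 ± 0.39 and Cep70 at -0.022 ± 0.38. Cep85, an inhibitor of the kinase that separates centrosomes, was at 0.30 ± 0.28 (adjusted p = 0.508), the one Cep gene above 0 by its representative probe set.

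The other 16 member probe sets lay under the filter, 15 of them of Cep genes, with signals from 6.9 to 609.4. They left 7 Cep genes without a test, among them Cep164 of the distal appendages, Cep290 of the transition zone and Cep152, the scaffold of centriole duplication. The groups overlapped in 15 of the 16, the exception being a second probe set of Cep350. In a fit with no filter none of the 16 passed (adjusted p 0.323 to 0.984), and 6 of all 57 members passed, or 10.5%, against 9.9% of all 22626 probe sets, of which 5.42% were lower.

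**Figure D4:**
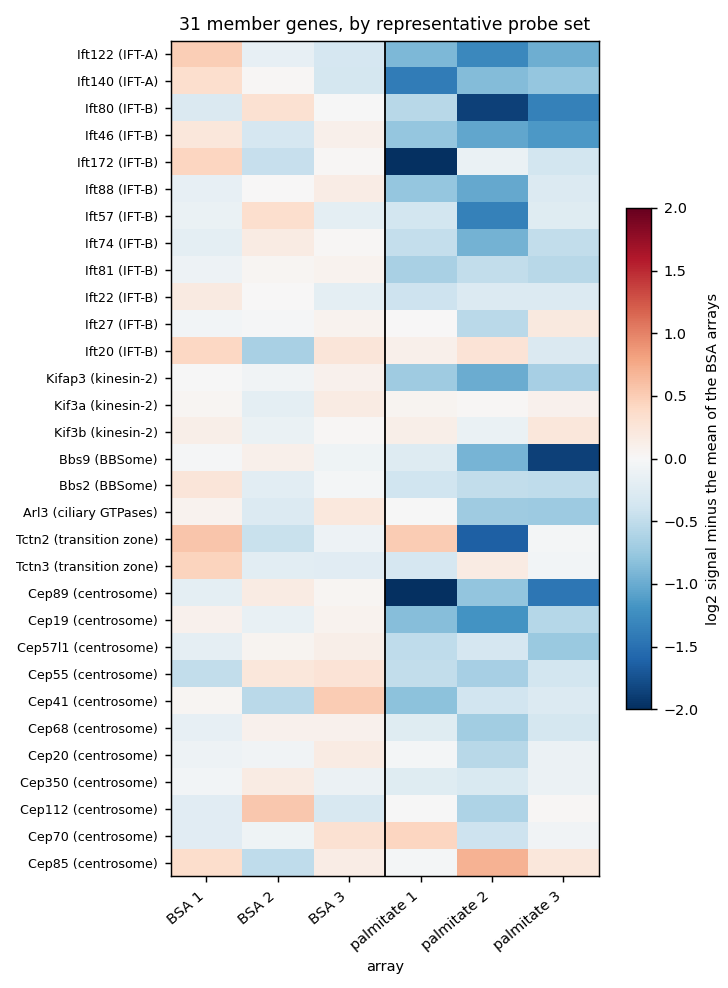
Log2 signal of 31 member genes (rows, by representative probe set, grouped by complex) on 6 arrays (columns), minus the mean of the BSA arrays, with blue for lower and red for higher; the colour scale ends at 2 on either side. Most rows are blue on the palmitate arrays, with palmitate replicate 2 the lowest of the 3 in 17 of 31 genes, and the palmitate cells of Kif3a and Kif3b stay near white.

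Relative to the BSA mean, the median log2 signal of the 41 member probe sets was -0.39, -0.53 and -0.28 on the 3 palmitate arrays and between -0.065 and 0.069 on the BSA arrays. Over all probe sets tested the same medians lay between -0.019 and 0.018. In 17 of the 31 genes every palmitate array lay below every BSA array, and in 0 every one lay above. By probe set this was 20 of 41 or 48.8%, all with palmitate below, against 37.2% of all probe sets tested, 19.6% with palmitate below. The median SD between arrays was 0.23 with BSA and 0.25 with palmitate, on the log2 scale, close to the 0.24 of all probe sets in each group. Among the 7 genes with more than 1 probe set tested, 4 had all of them below 0 and 3 (Cep68, Kif3a and Kif3b) had them on both sides.

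RFX transcription factors bind a palindromic motif called the X-box in front of many ciliary genes, so the promoters of the members were searched for it. RefSeq promoters (GRCm38.p6, 250 bases before to 50 after the start) were at hand for 33 of the 38 genes. The letters searched were GTNNCC and GNAAC with 3 free bases between them, on either strand, with N for any base. They occurred in 5 of the 33 (15.2%) against 2.49% of 27025 genes with a promoter. Only this spacing was searched, and X-box below stands for a match to it. Arms set at another spacing, as in the promoter of Cep41, were not counted as an X-box. The letters GTTGCC, an arm of the X-box that can overlap it, occurred in 12 of 33 (36.4%) against 14.1%, CCAAT in 24 of 33 (72.7%) against 41.1%, and the E2F letters TTTGGCGC in 2 of 33 (6.06%) against 0.585%. Of the 7 genes with a lower probe set and a promoter, 1 held the X-box and 3 the arm, and of the 20 tested without a lower probe set, 4 held the X-box and 8 the arm. A match is a description of the letters and not of binding.

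The X-box matches are shown because this is the motif known for ciliary genes, although 5 of the 33 promoters held it at the spacing searched. Each line gives the match in capitals with 8 bases on either side, 5′ to 3′ on the gene's strand, which is the plus strand for all of them. The letters matched on the minus strand in Ift57, Tctn2 and the distal match of Ift22, and on both strands in Cep19. They lie at chr11:108425018-108425047 and chr11:108425174-108425203 for Cep112, at chr16:32099803-32099832 for Cep19, at chr5:136908079-136908108 and chr5:136908109-136908138 for Ift22, at chr16:49699199-49699228 for Ift57 and at chr5:124598679-124598708 for Tctn2. All but that of Cep19, which begins 22 bases past the start, lie before the start of the gene.
Cep112, distal match: actagacaGTTACCATAGCAACggagctgc
Cep112, proximal match: cccggagcGTCGCCATGGCAACagagttga
Cep19: agccttctGTTGCCTTGGGAACgatcctcg
Ift22, distal match: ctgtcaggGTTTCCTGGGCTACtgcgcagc
Ift22, proximal match: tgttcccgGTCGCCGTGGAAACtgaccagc
Ift57: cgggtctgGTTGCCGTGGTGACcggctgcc
Tctn2: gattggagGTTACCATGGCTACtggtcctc

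Among these 5 genes the values ran from the fall of Cep19 (-0.88) through Ift57 (-0.65), Tctn2 (-0.39) and Ift22 (-0.32) to Cep112 (-0.20). Of the genes that fell, Ift140 and Ift27 held the arm without an X-box, and Ift46, Ift74, Kifap3 and Cep89 held neither in these windows. The 250 bases before the start are given for Ift140 (chr17:25015836-25016085, plus strand) and Ift27 (chr15:78174082-78174331, minus strand), which fell, and for Ift57 (chr16:49699044-49699293, plus strand), whose X-box and second arm lie close together. Capitals mark the arms on either strand and the X-box at the spacing searched. The second arm of Ift57 runs on as GTTGCCtggtaac, with arms on both sides at a closer spacing that was not searched.
Ift140: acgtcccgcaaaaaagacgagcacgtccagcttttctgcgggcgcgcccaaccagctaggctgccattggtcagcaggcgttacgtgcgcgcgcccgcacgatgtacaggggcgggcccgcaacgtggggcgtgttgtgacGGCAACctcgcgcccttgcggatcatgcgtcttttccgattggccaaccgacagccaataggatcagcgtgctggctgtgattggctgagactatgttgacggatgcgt
Ift27: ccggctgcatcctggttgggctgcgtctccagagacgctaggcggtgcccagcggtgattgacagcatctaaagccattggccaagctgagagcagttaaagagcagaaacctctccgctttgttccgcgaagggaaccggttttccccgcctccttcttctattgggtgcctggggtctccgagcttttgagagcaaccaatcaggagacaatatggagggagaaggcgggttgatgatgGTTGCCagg
Ift57: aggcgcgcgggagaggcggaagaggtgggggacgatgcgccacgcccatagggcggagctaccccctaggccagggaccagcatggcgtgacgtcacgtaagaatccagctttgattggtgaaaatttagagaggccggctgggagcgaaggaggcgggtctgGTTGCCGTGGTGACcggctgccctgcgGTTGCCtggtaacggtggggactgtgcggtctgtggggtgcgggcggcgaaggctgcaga

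Other genes of the same machinery were listed by role, with earlier results of these data known. Over all genes 12.3% were called lower and 7.92% higher. At an unadjusted p under 0.05 these shares were 19.8% and 13.7%. Of 7 other IFT and dynein-2 genes tested 0 passed in limma's test (2 lower and 0 higher at an unadjusted p under 0.05), with Hspb11, the gene of the IFT25 subunit, at -0.66 ± 0.24 (adjusted p = 0.0798). Of 13 other genes of BBSome and ciliary traffic 1 fell and 0 rose (4 lower and 0 higher at an unadjusted p under 0.05). That was Pde6d, a carrier of prenylated proteins that Arl3 unloads, with 1894.7, 1975.6 and 1575.0 with BSA and 1116.7, 1118.5 and 1119.1 with palmitate (-0.69 ± 0.18, adjusted p = 0.0195, and up to 0.0873 without BSA replicate 2, palmitate replicate 1 or palmitate replicate 3). The BBSome subunit genes Ttc8 and Bbip1 were at -0.58 ± 0.25 (adjusted p = 0.134) and -0.22 ± 0.51 (adjusted p = 0.804). Unc119b, a carrier of myristoylated proteins, was at -0.58 ± 0.20 (adjusted p = 0.0606). Of 8 other transition zone genes 0 passed (1 lower at an unadjusted p under 0.05, the basal body gene Cby1 at -1.42 ± 0.51, adjusted p = 0.0725). The palmitate mean of Cby1 lay under the filter, so Cby1 passed it through its BSA arrays.

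Of 24 other centrosome and centriole genes 6 fell and 0 rose (11 lower and 0 higher at an unadjusted p under 0.05). Among the 11, Cdk5rap2 and Rttn, which were not called, had palmitate means under the filter and passed it through their BSA arrays. Over all genes 12.3% were called lower, and 19.8% were lower at an unadjusted p under 0.05. The list median was -0.45 against -0.051 over all genes. Haus1 and Haus4 of augmin, which branches spindle microtubules, fell by 1.05 ± 0.23 and 0.92 ± 0.25. Tubg1, the gamma-tubulin that nucleates microtubules, fell by 0.71 ± 0.21, and Nedd1, which anchors it, fell by 0.80 ± 0.23. Cetn2, a centrin of the centriole, fell by 0.81 ± 0.20 and Ssna1, a microtubule-binding centrosomal protein, by 0.55 ± 0.18. Haus1 passed without each array in turn (adjusted p up to 0.044), while the other 5 lost their calls without 1 or more arrays (adjusted p up to 0.136). Plk4, the kinase of centriole duplication, was at -0.74 ± 0.25 (adjusted p = 0.0551).

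Of 7 hedgehog pathway genes tested, whose signal runs through the primary cilium, 3 fell and 0 rose, the same counts as at an unadjusted p under 0.05. Over all genes 12.3% were called lower and 7.92% higher. Smo, the transducer that enters the cilium, read 2361.8, 2419.7 and 2014.1 with BSA and 1303.9, 1305.9 and 1439.4 with palmitate (-0.74 ± 0.17, adjusted p = 0.0107, and 0.0548 without BSA replicate 2). Evc, of the base of the cilium, read 984.3, 743.5 and 665.0 with BSA and 213.4, 370.4 and 49.3 with palmitate under the filter's signal on 2 arrays (-2.32 ± 0.61, adjusted p = 0.0199, and up to 0.068 without BSA replicate 1 or 2). The palmitate mean of Evc also lay under the filter. Evc therefore passed the filter through its BSA arrays, and the size of its fall is imprecise. The surface coreceptor Gas1 fell by 3.41 ± 0.35. Boc (0.40 ± 0.32, adjusted p = 0.419) and Gli3 (0.064 ± 0.45, adjusted p = 0.942) lay above 0 and were not called, and Sufu was at -0.019 ± 0.19. The receptor and target gene Ptch1 was at -0.30 ± 0.37 (adjusted p = 0.624), and Gli1, the usual readout of the pathway, lay under the filter. Among 7 genes of cilium assembly and disassembly 1 rose and 0 fell in limma's test, with the same counts at an unadjusted p under 0.05. It was the dynein regulator Ndel1, from 5393.3, 5546.9 and 5880.5 to 8726.7, 8057.3 and 9248.4 (0.63 ± 0.13, adjusted p = 0.00682). It did not pass after hybridisation control scaling (0.30, adjusted p = 0.241). Aurka, the kinase that sets off disassembly, was at 0.087 ± 0.18 (adjusted p = 0.78).

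The lists of markers of proliferating and of unfused cells also had more genes called lower than higher. Over all genes 12.3% were called lower and 7.92% higher. Of 15 proliferation markers 10 fell and 0 rose (13 lower and 0 higher at an unadjusted p under 0.05), with a median of -1.0, and their summed signal was 66351 to 85334 with BSA and 44973 to 52873 with palmitate. Mki67 fell by 1.59 ± 0.17, while Cdc20 (0.024 ± 0.18) and Aurka (0.087 ± 0.18) lay above 0. All 6 fibroblast markers tested, which C2C12 myoblasts also express, fell at a median of -1.78, from a summed signal of 103059 to 124715 with BSA to 31736 to 35528 with palmitate, and Pdgfrb fell by 2.97 ± 0.19. The mean log2 palmitate signals of the fibroblast marker Pdgfra and the proliferation marker Bub1b lay under the filter. Both passed it through their BSA arrays. Of 7 markers of undifferentiated myoblasts 3 fell and 0 rose (4 lower and 0 higher at an unadjusted p under 0.05), including Notch3 (-1.05 ± 0.17), with a summed signal of 13235 to 14610 and then 9016 to 11080. Hes1 of the same list was above 0 (0.15 ± 0.24). No marker in these lists was listed at 0, and the part of these cells in the lower ciliary signals was not tested. Of the multiciliated cell markers 4 had a probe set and 0 passed the filter, with a summed signal of 361.4 to 515.4 and 449.9 to 730.1. Of 2 leukocyte markers tested 0 passed in limma's test (1 higher and 0 lower at an unadjusted p under 0.05), and 0 of 4 endothelial markers passed the filter.

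**Figure D5:**
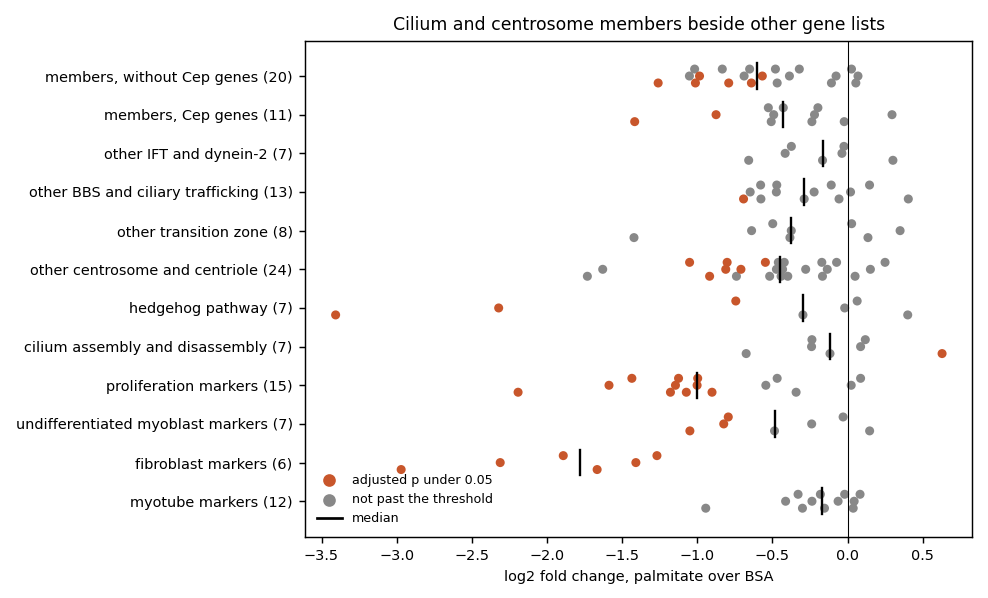
Log2 fold change, palmitate over BSA, of each tested gene (points) in the members and in 10 other gene lists, with the list median as a black line and the number of genes in brackets; orange points passed limma's adjusted threshold. The medians are -0.60 for the members without Cep genes, -0.43 for the Cep genes, -1.0 for proliferation markers, -1.78 for fibroblast markers and -0.17 for myotube markers.

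Scaling to the array's hybridisation control probe sets took the median log2 fold change to -0.34 over all probe sets and to -0.80 over the members. The RNA content of the cultures was not measured. It gave 18 lower members and 0 higher, 43.9% of those tested, where 23.3% of all probe sets were called lower. This scaling moves every fold change by 1 amount.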

How the data were processed

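The authors deposited MAS 5.0 signals, a linear intensity per probe set, per the submitters' processing notes and the file's values. Detection calls and further settings are not given in the sources used. On the 6 arrays the trimmed mean was equal (1500.5 to 1500.56), so each array had been scaled to 1 average, which hides a shift shared by all genes. Probe sets were named through the platform annotation: of 22626 without array controls, 20380 had 1 symbol, 691 several and 1555 none.

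Signals were taken to log2 as they stood. The filter kept 13575 probe sets, those whose mean log2 signal exceeded the 40th percentile. The groups were compared with limma 3.58.1 in R 4.3.3 (lmFit, eBayes with an intensity trend, two-sided, Benjamini-Hochberg over all 13575, threshold 0.05). The script was tested on simulated data. Precision is limited by the 3 arrays a group, with a median SE of 0.22 and 4 residual degrees of freedom.

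The members and lists were chosen with earlier results of these data known. Every member could be named, with per-array signals for those past the threshold and for the 4 smallest p of the rest. Per-array values of other members were picked after values were seen. So were the non-member genes Ttc8, Bbip1, Cdk5rap2, Rttn, Ptch1, Gli1, Gli3, Sufu, Aurka, Cdc20, Hes1, Myog, Myh3, Acta1, Actn2 and Mef2c. Alternatives covered scaling, the filter, an offset of 64, the trend, averaging a gene's probe sets, the replicate number as a block and leaving out each array.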

Additional observations from a re-analysis of the deposited data

How the results depend on the processing

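No setting gave a member higher with palmitate. The 10 lower members became 18 under hybridisation control scaling (all 10 among them), 6 of 57 without a filter, 5 under a filter at the 60th percentile, where 18 members were tested and 13.6% of all probe sets were lower, and 5 genes with probe sets averaged (Cep19, Ift140, Ift46, Ift74 and Kifap3), where 11.1% of all genes were lower. Leaving out 1 array gave 3 to 8, with 3 without BSA replicate 3 and 5 without BSA replicate 2. In those fits 6.14% to 9.44% of all probe sets were lower. Under the other scalings, the offset and no intensity trend the count was 8 to 10, where 8.51% to 10.8% of all probe sets were lower. Over all probe sets the 2609 calls became 1515 genes on averaging and 1579 to 2315 on leaving out 1 array. The split of 1172 higher and 1437 lower moved to 404 and 3169 under hybridisation control scaling.

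With the replicate block 7 members (17.1% of those tested) and 1973 probe sets (14.5%) passed, and 8.24% of all probe sets were lower. Ift140 (adjusted p = 0.0518), Ift74 (0.0664) and Ift81 (0.115) did not, nor did Pde6d, Tubg1 and Ssna1 (0.0537 to 0.0986). No pairing by replicate number was seen: deviations of same-numbered arrays correlated at -0.233, -0.133 and 0.00914, and no array correlated best with its own number. With 3 arrays a group, these values cannot show whether same-numbered samples shared a culture.

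Of 621 values of single members under alternatives, 542 kept direction and side of the threshold, 39 lost a call, 11 gained one and 29 turned direction, none of the latter called as reported. Cep70 turned to 0.0044 under median and 0.0085 under 75th percentile scaling. Hybridisation control scaling put Cep68 (second probe set) at -0.0055, Cep85 at -0.038, Ift20 at -0.31, Kif3a at -0.28 and 3 Kif3b probe sets at -0.26, -0.063 and -0.17. Averaging put Cep55 at 0.0061, Cep68 at 0.056 and Kif3a at -0.040. Leaving out 1 array took Tctn3 from -0.20 to 0.14, Cep112 from -0.35 to 0.076, Ift20 from -0.30 to 0.23, Kif3a from -0.045 to 0.14, Cep70 from -0.25 to 0.18, Tctn2 from -0.84 to 0.24, the representative probe set of Ift27 from -0.26 to 0.11, and Kif3b from -0.0074 to 0.17, with other probe sets at -0.65 to 0.35 and -0.023 to 0.49. The causes were not tested. Signals near 267.1 give imprecise fold changes.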
